A study of Mus musculus and synthetic construct with 21 samples.

Results

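The c sites of pool 1 are 750 mouse genomic sites, each built into a reporter library as 2 elements, a native form (code ct) and a second form (code cd) that is taken to hold an altered motif. They were taken by these codes in the element names and paired by site number, which gave 1500 of the 3000 elements of pool 1 and of 22363 elements in the 7 reporter pools of the series. The other elements of pool 1 belong to 750 w sites, with forms wt and wd. The names spell out neither the letters nor the bases that were changed, and an altered element carries its native motif in its name, so the altered sequences are not analysed here. The w and the c site of a number carried the same 16-base motif at all 750 numbers, at different places in the genome.

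Enhancer activity was read in a massively parallel reporter assay, in which each element drives a barcoded transcript and the reads of a barcode in RNA are divided by its reads in the plasmid pool. The plasmids were transfected into 3T3-L1, a mouse line that turns from pre-adipocytes into adipocytes. The cells were grown past confluence and given dexamethasone (1 µM), insulin (1.7 µM) and the phosphodiesterase inhibitor IBMX (0.5 mM), with a change of medium 48 h later, according to the labels. RNA was taken 16 h after transfection, and the time of transfection relative to induction is not given in the sources used here. All elements, native and altered, were measured in the same culture.

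There was 1 RNA library (34801803 counts) and 1 plasmid library (48330091 counts). The replicate units below are therefore the up to 9 barcodes of an element, which are separate plasmids in 1 culture, and no p-value covers variation between cultures. A c element had a median of 9 usable barcodes in either form, those with at least 20 plasmid counts. Median plasmid counts were 12918 per native and 11345 per altered c element, with 6450 and 5319 RNA counts. Usable barcodes with 0 RNA counts numbered 2 of 6314 in native and 1 of 6434 in altered c elements.

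PPARγ, a nuclear receptor, is the master regulator of fat cell formation. It binds DNA as a dimer with RXR at a DR1 motif, a direct repeat of the half-site AGGTCA with 1 base between the copies. PPARγ sits on the 5′ half-site and also touches the bases just before it, while RXR sits on the 3′ half-site. A motif of this kind occurs very often in the genome, and most copies are not occupied in adipocytes, so a reporter can ask what a motif does once it is taken out of its chromatin.

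The motifs of part of the c sites called below are shown first, because the results turn on them. They are the 16 bases in the element name, 5′ to 3′ on the strand of the motif, with the positions of the DR1 half-sites in capitals, and they come from build mm9. The first group of 8 was more active in the native form by both tests used below and c166 belongs with it but is shown without sequence.
c142: tctGGGCAAaAGGGTA
c46: actGTGATAaAGGTCT
c609: tgtAGGTAAaGGGTCA
c350: aggAGGTCAaAGGCAA
c529: actGGGGCAaAGGGCA
c4: accAGGTGAaAGGTTA
c275: tctGGGTGAaAAGTTG
c20: actAGGGCAaAGTTCA
The second group was less active in the native form and, unlike the first, did not need both tests. Sites c664, c575, c414 and c509 were called by both tests, c401 and c245 by the permutation test alone.
c664: acaAAGGCAaAGGCAA
c575: atgAGAGCAaAGGCCA
c401: agtAGGTCAaAGGGCA
c414: gtcAGGGCAaAGTGCA
c509: tcaAAGCCAaAGGTGA
c245: tgtAGGCCAgAGGTCA
The 3 c sites whose motif matched the consensus at all bases of both half-sites are shown as well. They were not called, but 3.87% of all c sites were, so this does not set them apart.
c158: attAGGTCAaAGGTCA
c422: tttAGGTCAgAGGTCA
c450: tggAGGTCAaAGGTCA

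Native and altered forms lay close together at most c sites. Activity is the log2 of RNA over plasmid counts, each scaled to its library total, taken as the median of an element's barcodes, so that 0 is the ratio of the library as a whole. Native c elements had a mean activity of -0.52 ± 0.39 (SD, n = 749 sites) and altered ones -0.60 ± 0.31. The difference, native minus altered, had a mean of 0.08 ± 0.42, a median of 0.08 and middle quartiles of -0.15 and 0.32. It was above 0 at 442 sites (59.0%) and within 0.5 of 0 at 605 (80.8%). The site left out, c378, had 2 native barcodes, under the minimum of 3 per form.

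From the spread of barcodes alone, the standard error of the mean over these 749 sites was 0.013. Sites are members and not replicates, and the mean over them was not tested. Native activity ranged from -1.77 to 1.54 and altered activity from -1.66 to 1.38. Native elements exceeded 0 at 52 sites (6.94%) and altered elements at 20 (2.67%). Differences above 1 were seen at 19 sites and below -1 at 7. The w sites had a mean difference of 0.67 ± 0.78 and a median of 0.51 (n = 743), with 207 above 1, and over w and c sites together the median was 0.23 (n = 1492).

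Most of the spread between c sites was of the size that barcodes give. The median SD over the barcodes of an element was 0.64, and the median standard error of a site's difference was 0.32. By barcode means, the differences had a variance of 0.184 over c sites, and the mean squared barcode error was 0.133, which is 72.4% of it. The variance left corresponds to an SD of 0.23 between c sites. At w sites the same share was 25.4% and the SD left 0.66.

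Dividing the barcodes shows the same thing. Computed from odd and from even barcode slots, the difference correlated with r = 0.169 and rho = 0.138 over 742 c sites, against r = 0.605 over 741 w sites. Native c activity alone correlated better, with r = 0.413, and altered c activity with r = 0.222. These are descriptions across sites within the same 2 libraries. Even slots had a median of 959 plasmid counts and odd slots 678.5.

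The pool also measured some c sites more than once. The 750 c elements of a form had 734 distinct sets of coordinates, because 27 elements shared 11 sets, each copy with its own barcodes. The SD between copies was 0.36 for the difference, 0.23 for native and 0.21 for altered activity (16 degrees of freedom), against 0.42, 0.39 and 0.31 over all c sites. Agreement between copies varied. The motif on chromosome 6 at 92800043 to 92800058 (accAGGCCCaAGTTCA) was measured as c218 and c592, with differences of 0.70 and 1.09 and native activities of 0.65 and 0.81. The motif on chromosome 7 at 140507287 to 140507302 was measured as c601 and c743, whose differences of -0.74 and 0.54 had opposite signs. The motif on chromosome 2 at 3999263 to 3999278 (tgtGGGTCAcAGGCCC) was measured 5 times, with differences of 0.27, -0.21, -0.71, -0.52 and -0.34. None of these 27 elements was called alone. With barcodes of copies merged, an analysis added after the data were seen, the site on chromosome 2 was lower in the native form by -0.49, from 43 native and 41 altered barcodes (permutation p = 0.00228 and adjusted p = 0.0200). In the same analysis c689 with c720 on chromosome 4 was higher by 0.36 (permutation p = 0.00637, adjusted p = 0.0429), while c218 with c592 at 0.92 did not pass (permutation adjusted p = 0.0858).

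Single c sites were tested by permuting native and altered barcodes, with p-values adjusted over all 1492 w and c sites. The test was 2-sided and used barcode means, while the differences printed are of medians. The test called 29 of 749 c sites (3.87%). In 23 of them (3.07%) native activity was higher and in 6 (0.801%) it was lower. Over w and c sites together 15.2% were called, 14.6% higher and 0.603% lower, and over w sites alone 26.6%, with 195 of 743 (26.2%) higher and 3 (0.404%) lower. Higher calls were thus rarer among c sites than in the pool as a whole, and lower calls were about as rare. At an unadjusted p under 0.05 there were 71 c sites (9.48%), 56 higher and 15 lower. Adjusting together with the w sites, which respond often, lets more c sites pass, so the threshold of 0.05 does not hold within the c sites. If no c site differed, 5.67 of 749 would be expected at or under the largest p among the calls, 0.00758. Adjusted over c sites alone, the permutation p of the 29 calls ran up to 0.196, at c183 and c730. Adjusted over c sites alone the count was 12 (1.6%), with 10 higher (1.34%) and 2 lower (0.267%). A limma fit over all site numbers called 14 of 742 c sites (1.89%), 10 higher (1.35%) and 4 lower (0.539%). Of these 14 limma calls, 13 were among the 29 permutation calls, which is 92.9% of the first list and 44.8% of the second. The 14th was c26 (1.12; permutation adjusted p = 0.0931, limma adjusted p = 0.0376).

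The 9 sites that were higher in the native form by both tests had differences from 0.90 to 2.23, with a median of 1.24. Site c142 (chromosome 1, 88631761 to 88631776) led. Its 9 native barcodes ran from 0.79 to 1.76 with a median of 1.35, and its 9 altered barcodes from -1.61 to -0.18 with a median of -0.88. The ranges did not overlap, and the difference of 2.23 had an exact permutation p of 4.11e-05, the smallest that 9 against 9 barcodes can give (adjusted p = 0.00146). Its motif has 5 mismatches to the consensus, and 6 was the most at any c site.

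Site c46 (chromosome 4, 135057690 to 135057705) followed with a difference of 1.81, from native barcodes between -0.98 and 1.84 (median 1.10) and altered barcodes between -1.83 and 0.51 (median -0.72). A single native barcode lay below the altered median there, and the ranges overlapped (exact permutation adjusted p = 0.00898). Its motif, too, has 5 mismatches. Site c609 (chromosome X, 24222639 to 24222654) had native barcodes from 0.61 to 2.06 (median 1.22) and altered barcodes from -1.06 to 0.48 (median -0.21), again without overlap, and a difference of 1.43 (exact permutation adjusted p = 0.00146). Site c350 (chromosome 11, 51313493 to 51313508) differed by 1.36, with native barcodes from 0.47 to 1.77 and altered ones from -1.41 to 0.61. Its 5′ half-site is a full AGGTCA.

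Site c529 (chromosome 8, 35896565 to 35896580) differed by 1.24 between native and altered medians of 0.71 and -0.53. Sites c166 and c4 (chromosome 6, 135865278 to 135865293) differed by 1.12 and 1.07, but both stayed below 0 in the native form, at -0.17 and -0.32. Their altered forms, at -1.29 and -1.39, were low even among altered c elements, whose median was -0.62. Sites c275 (chromosome 8, 8387996 to 8388011) and c20 (chromosome 4, 101734902 to 101734917) differed by 0.96 and 0.90 from altered forms near that median, at -0.45 and -0.54. Thus 7 of these 9 native elements exceeded 0, and none of their altered forms did. The sites were called on these same values, so this describes the selection.

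A further 14 sites were higher in the native form by the permutation test alone, by 0.35 to 1.45. By medians the largest was c356 (chromosome 10, 118528665 to 118528680), the most active native c element of all, at 1.54 against 0.09 when altered (exact permutation adjusted p = 0.0120, limma adjusted p = 0.0872). By barcode means its difference was 0.99 and by summed counts 0.84, and by means c638 exceeded it with 1.19. Site c638 (chromosome 16) stood at 1.21 and 0.23 in its 2 forms, from 5 native and 8 altered barcodes that did not overlap, and was not called with a plasmid minimum of 1 (permutation adjusted p = 0.375). The remaining 12 were c528, c538, c604, c386, c687, c494, c147, c402, c730, c51, c555 and c183. The smallest called difference of medians was 0.35, at c183 (7 barcodes in each form), where the barcode means differed by 0.74. It had the largest permutation adjusted p, 0.0498, and was not in the limma fit. When each barcode was left out in turn, 18 of the 29 called sites kept every exact permutation p within the largest p among the calls, 0.00758. The other 11 did not, among them c183 and c528 and, with a lower native form, c414 and c245.

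At 6 c sites the native form was the less active one. In each of them the altered element exceeded 0, which was so at 20 of 749 c sites, while no native element did. The 6 sites were called for altered activity above native activity, so high altered values are in part given by the call. Site c664 (chromosome 14, 55605752 to 55605767) had the largest difference, -1.92. Its 5 native barcodes lay between -1.92 and -0.04 with a median of -1.03, and its 8 altered barcodes between 0.23 and 1.54 with a median of 0.89, without overlap (exact permutation adjusted p = 0.00925). It rested on 443 native RNA counts and 985 native plasmid counts, far fewer than a typical c element. The difference was -1.17 with a plasmid minimum of 1, smaller in size than that of c575, and -1.06 and -2.97 in odd and even slots. The call was lost with a minimum of 100 (-2.28, exact permutation adjusted p = 0.0863). Site c575 (chromosome 19, 46785074 to 46785089) differed by -1.46, from a native median of -0.08 to 1.38, the highest altered c element. Site c509 (chromosome 8, 10770103 to 10770118) went from -0.19 in the native to 1.01 in the altered form. Sites c401 (chromosome 16, 88710669 to 88710684), c414 (chromosome 1, 189940684 to 189940699) and c245 (chromosome 7, 28184555 to 28184570) differed by -1.25, -1.22 and -0.67, the last by -0.34 with summed counts. Limma adjusted p-values were 0.0549 at c401 and 0.549 at c245. Adjusted over c sites alone, c401, c414, c245 and c509 were not called (permutation adjusted p = 0.0539, 0.148, 0.155 and 0.0539). With single barcodes left out, the permutation p exceeded the largest among the calls in 8 of 16 fits at c414 and 10 of 18 at c245. With c401 and c245, 2 of the 4 called sites that have a single mismatch to the consensus were lower in the native form, and c494 and c402 were higher.

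Not every active altered element belonged to a called site. Among the 5 most active altered c elements, c575, c509 and c664 were those just described. The other two, c690 (chromosome 15) and c9 (chromosome 7), stood at 0.73 and 0.65 when altered and at 0.64 and 0.57 when native. Their differences of -0.10 and -0.08 were not called (exact permutation adjusted p = 0.826 and 0.762) and had standard errors of 0.43 and 0.31. Their direction was not stable, with -0.94 and 0.94 in odd and even slots at c690 and -0.50 and 0.28 at c9. Across c sites the native and altered activities of a site correlated with r = 0.307 (n = 749).

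The w site of each number tests the same 16 bases in other surroundings. The difference was larger at the w site by 0.58 ± 0.85 on average (n = 742 numbers; larger at 564), with a barcode standard error of 0.019. The limma interaction test called 119 numbers (16%). Of these, 116 (15.6% of 742) had a larger difference at the w site and 3 (0.404%) at the c site. The size of the response was hardly shared by number, with r = 0.088 and rho = 0.064 over 748 numbers. At the 195 numbers where the w site was called higher, c sites averaged 0.12 ± 0.44, against 0.07 ± 0.41 at the 545 numbers where it was not called.

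The c partners of the 10 largest called w differences serve as examples. Of these partners c142 was called, against 3.87% of all c sites, so the count does not set the partners apart. Number 39 (ttgGGGTGAgAGGTGA) went from -0.58 altered to 2.62 native at the w site and from -0.42 to -0.53 at the c site, so its differences were 3.21 and -0.11. Number 519 (tccAGGACAcAGGTCA), with a single mismatch, had 2.90 and -0.10. Number 201 (tgtAGGTAAaAGTTTA) had 2.79 and -0.03, and number 126 (actAGGCCAgAGTTCA) 2.93 and 0.31. The differences of these 4 numbers between w and c sites had limma adjusted p-values from 2.91e-07 to 1.37e-05. The partners c548 and c660 had only 3 native barcodes each, and their differences of -0.81 and -0.86 had standard errors of 0.89 and 0.55. With a plasmid minimum of 1 they turned to 0.36 and 1.46. The partner c100 had a difference of 0.77 that was not called (permutation adjusted p = 0.271).

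Of the 22 called c sites with a higher native form and a tested w partner, 6 had a w partner called higher, a share near the 26.2% over all w sites. They were c142, c46, c609, c4, c638 and c555. At number 142 the w site rose from -0.24 to 2.70, a difference of 2.94 against 2.23 at the c site, and the interaction was 0.76 ± 0.38 (SE; limma adjusted p = 0.177). At number 46 the differences were 1.98 and 1.81, and at number 609 1.72 and 1.43, with interactions of 0.42 ± 0.48 and 0.07 ± 0.46 (limma adjusted p = 0.638 and 0.944). These p-values do not show that the surroundings were without effect. At number 4 the w difference of 2.73 exceeded that of the c site, 1.07 (limma adjusted p = 0.0442).

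The reverse case also occurred. Site c275 differed by 0.96, its w partner stood at -0.57 native and -0.56 altered, and the interaction of -1.10 ± 0.39 had limma adjusted p = 0.0465. Numbers 292 and 668 were the other 2 with a larger difference at the c site. There the c sites, at 0.59 and 0.60, were not called. The w difference was -1.01 at number 292, which was called, and -1.57 at number 668, which was not (exact permutation adjusted p = 0.128).

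Among the 6 sites with a lower native form, number 509 was the only one with a w partner called lower. Its motif gave -0.71 native and 0.70 altered at the w site, a difference of -1.41, and -1.20 at the c site (interaction 0.13 ± 0.44, limma adjusted p = 0.886). At numbers 414, 401 and 664 the w and c differences were unlike. The motif of number 414 raised activity by 1.18 at the w site and lowered it by -1.22 at the c site (interaction 2.21 ± 0.42, limma adjusted p = 0.000113). For number 401 the w difference was 0.74 and the interaction 2.13 ± 0.52 (limma adjusted p = 0.00240), and for number 664 they were -0.75 and 1.33 ± 0.47 (adjusted p = 0.0449).

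How closely the motif matched DR1 went with the difference only weakly. Over 749 c sites, rho was -0.120 and r -0.091 between the number of mismatches and the difference, as a description across sites. All 750 best matches lay on the named strand, and 744 began at position 4 of the 16 bases. Sites with 2 mismatches had the clearest difference, 0.22 ± 0.41 (n = 100; above 0 at 76). With 1 mismatch the mean was 0.00 ± 0.51 (n = 33), with 3 it was 0.10 ± 0.42 (n = 250), with 4 it was 0.04 ± 0.37 (n = 213), with 5 it was 0.06 ± 0.46 (n = 128) and with 6 it was -0.04 ± 0.35 (n = 22). The order was thus not a steady one. The 3 sites with 0 mismatches averaged 0.31 ± 0.42, from 0.71 at c422 and 0.35 at c158 to -0.12 at c450, and their permutation adjusted p-values ran from 0.552 to 0.976.

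Of the 7 sites with 1 mismatch and the lowest numbers, c35 differed most, with 0.57 native and -0.53 altered, and missed the threshold (exact permutation adjusted p = 0.0517). At c79 the native form was lower by -0.70 (exact permutation adjusted p = 0.0688). The differences of c55, c58, c110 and c189 ran from -0.50 to 0.23 and were not called, and c245 was the lower one named above. Close matches to DR1 were thus found on both sides of 0.

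Single half-sites and bases were compared after the values had been seen, without tests. The 33 c sites with a full AGGTCA as 5′ half-site, the half-site of PPARγ, differed by 0.24 ± 0.48 with a barcode standard error of 0.055 (above 0 at 26), against 0.08 ± 0.42 at the other 716 (barcode standard error 0.014). In odd and even slots the first mean was 0.24 and 0.17, but these barcodes had been seen when the comparison was chosen. For a full 3′ half-site, that of RXR, the mean was 0.13 ± 0.41 (n = 103), against 0.08 ± 0.42 (n = 646). The w sites of the same numbers averaged 0.63 with a full 5′ half-site and 0.66 without.

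The widest spreads between bases with at least 50 sites were at position 3, just before the 5′ half-site, and at position 14, the fourth base of the 3′ half-site, where the consensus has T. With T at both, the mean difference was 0.18 ± 0.39 (n = 292, above 0 at 205, 70.2%), and it was 0.17 and 0.19 in odd and even slots. Examples are c20, c46 and c402, higher in the native form, and c245, lower in it. With T at neither, the mean difference was -0.08 ± 0.42 (n = 114, above 0 at 45, 39.5%), and 0.02 and -0.13 in odd and even slots. Called sites there were c414, c575 and c664, lower in the native form, and c350, c638 and c183, higher in it. Barcode standard errors were 0.021 and 0.037. The positions and bases were picked by this same difference over all barcodes, so odd and even slots cannot check that choice. The w sites of the same numbers averaged 0.75 and 0.51. Called sites were 12 higher and 1 lower in the first group and 3 and 3 in the second, and the shares of higher calls were near the 3.07% over all c sites. Lower calls were 0.801% over all c sites, and their small counts in these groups were not tested.

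The c sites were unevenly spread over the chromosomes. Chromosome 7 held 152 of the c sites and chromosome 14 held 88, against 50 and 17 of the w sites. The mean difference was 0.03 ± 0.39 at c sites on chromosome 7 and 0.10 ± 0.43 on all other chromosomes. Of the called sites, 1 higher and 1 lower were on chromosome 7, and 22 and 5 on the others (3.07% and 0.801% over all c sites). The GC share of the 16 bases correlated with the difference with r = -0.141 and rho = -0.151 (n = 749), as a description across sites.

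PPARγ ChIP of the transfected plasmids gave a second readout of the same elements. Binding is the log2 of ChIP over input counts, scaled to library totals (1987761 and 1381624 counts, 1 library each), and both forms had values at 404 c sites, none of them among the 27 elements with shared coordinates. The mean binding difference was smaller with each further mismatch, but single sites varied widely. Over the 404 sites r was -0.236 and rho -0.215 between mismatches and binding difference, as a description across sites. The SD over sites was 0.99 with 1 mismatch and 0.89 with 2. Native minus altered binding averaged 1.43 with 0 mismatches (n = 3), 0.70 with 1 (n = 20), 0.50 with 2 (n = 45), 0.37 with 3 (n = 136), 0.18 with 4 (n = 117), 0.06 with 5 (n = 72) and -0.01 with 6 (n = 11). By base, it averaged 0.60 ± 0.82 with T at positions 3 and 14 (n = 141) and -0.04 ± 0.67 with T at neither (n = 70).

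Activity differences were largest on average in the class with the largest binding differences. Where native binding exceeded altered binding by more than 1, the activity difference averaged 0.23 ± 0.48 (n = 71; above 0 at 52). Where it exceeded by 0 to 1 the mean was 0.10 ± 0.43 (n = 176), and where it fell short by up to 1 it was -0.01 ± 0.36 (n = 143). The 14 sites where it fell short by more than 1 did not continue this order, with 0.04 ± 0.21. From the highest to the lowest of these 4 classes, 7 of 71, 9 of 176, 2 of 143 and 0 of 14 sites were called higher. Called lower were 2, 2, 1 and 0 sites. All 404 sites with binding values held 18 higher and 5 lower calls. The shares over all c sites, with or without binding values, were 3.07% and 0.801%. Whether the classes differ in calls was not tested. Over the 404 sites r was 0.178 and rho 0.205, as a description.

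Of the called sites with a higher native form, 16 of 18 measured bound more PPARγ in that form, with a median difference of 0.76, against 227 of 381 and 0.21 among c sites not called. At c529 the native element had 2237 ChIP over 880 input counts (0.82) and the altered one 973 over 1153 (-0.77). At c142 binding was 0.75 and -0.18, and at c609 1.35 and -0.08. The exceptions were c46 (-0.31 native and 0.35 altered) and c604 (-0.27 and -0.02). Among the 16, binding was below 0 in both forms at c356 (-0.86 native and -1.44 altered), c350 (-0.71 and -0.90), c275, c386 and c730. The rest of the 16 had native binding above 0.

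The sites with a lower native form bound PPARγ as well. Native binding was the higher one at 4 of the 5 measured, with a median difference of 0.98. Site c401 had the largest, with 2330 ChIP over 239 input counts native (2.76) and 443 over 301 altered (0.03), although its activity was -0.62 native and 0.63 altered. At c575 binding was 0.28 and -0.60 and at c245 1.10 and -0.20. The exception was c414, at 0.91 native and 1.53 altered. Site c158, a full match to the consensus, had 17144 ChIP over 2634 input counts native (2.18) and -0.12 altered, while its activity, -0.38 and -0.73, did not pass. ChIP values have no replicate, so single binding differences were not tested.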

How the data were processed

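The authors deposited raw read counts per barcode for the RNA and plasmid libraries of pool 1 and raw ChIP and input read counts per element, per the series' design text and the file headers. The submitters' processing notes name mm9 and BWA 0.7.12, without their roles, and how barcodes were counted is not given in the sources used here. Names were parsed for form, number, place and motif, with start positions taken to count from 0 because end minus start equals the motif's 16 bases, and printed from 1.

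For activity, log2 RNA over plasmid counts (pseudocount of 1, scaled to library totals) was computed per barcode of 20 or more plasmid counts, and the median was taken per element. Sites with at least 3 barcodes per form were tested by 2-sided permutation of barcodes, enumerated exactly (100000 resamples above 200000 relabellings), with Benjamini-Hochberg adjustment over w and c sites and a threshold of 0.05. limma 3.58.1 in R 4.3.3 (robust eBayes) fitted the barcodes of the 4 forms per number, and gave the interaction of w and c differences. Numbers printed with ± are SDs over sites, except after interactions, where they are SEs of the limma fit. Both tests were tested on simulated data. Mismatches were counted at the best placement of the half-site AGGTCA, a free base and AGGTCA, on both strands.

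Named sites are all permutation calls, up to 10 further limma calls, the c partners of the 10 largest called w differences, the 5 highest native and altered c elements, and the 10 closest DR1 matches by number. The members and lists were chosen with earlier results of these data known.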

Additional observations from a re-analysis of the deposited data

Results flagged for a closer look

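The response to alteration differed between the w and the c site of the same number at 119 of 742 numbers, by the limma interaction test at an adjusted p under 0.05. Among the sites named above, the w difference exceeded the c difference by 4.80 at number 548, 3.88 at 660, 3.11 at 201, 3.10 at 39, 2.94 at 519, 2.68 at 126, 2.60 at 199, 2.54 at 189, 2.51 at 77, 2.35 at 100, 2.21 at 414, 2.13 at 401, 1.54 at 55, 1.33 at 664 and 1.25 at 4. At number 275 the c difference was the larger one, with -1.10. These are differences of barcode means from 1 RNA and 1 plasmid library, and those of 548 and 660 rest on 3 native c barcodes each and on c differences that change sign with a plasmid minimum of 1.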

How the results depend on the processing

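The count of called c sites, 29, was 12 when adjusted over c sites alone and 14 by limma, and otherwise lay between 27 and 32 under the other count minimums (1, 50 and 100), pseudocounts (0.5 and 5), the rank sum statistic, without barcodes at 0 RNA and with copies merged (31). The sites called were not all the same. Shared with the 29 were 24 with a minimum of 1, 27 with 50, 24 with 100 and 23 with the rank sum statistic. Pseudocounts of 0.5 and 5 shared 29 and 28, and leaving out barcodes at 0 RNA shared 29. With odd and even slots as a block, limma called 17 c sites. The merging, the slot block, the groups by base and the binding alternatives were chosen after seeing the data. Apart from merging and the slot block, where single sites were not compared, none of the 29 called differences changed sign under these settings, by means or sums over barcodes, or in odd or even slots. The sites were called on these same barcodes, so a kept sign in odd and even slots was largely given by the call. Among the 720 c sites not called, 388 had the same sign in odd and even slots, and not all of the 720 had values in both. Of the 29, 9 sites (c142, c46, c609, c350, c529, c166, c275, c20 and c575) passed under all 9 settings that test single sites. The mean difference over c sites, 0.08, moved by more than its barcode standard error with a minimum of 100 (0.10), with counts summed over barcodes (0.12) and in odd slots (0.10). The mean binding difference, 0.29, had a median over sites of 0.24. The cause of these moves was not tested. The count of numbers with unlike w and c differences, 119, ranged from 91 to 134. Each library was made once, so the forms were paired by site number but could not be compared over replicate cultures. The median standard error of a site from its barcodes, 0.32, limits what a single c site can show.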
